A study of Mus musculus with 36 samples.

Results

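The genes described here are 42 genes of DNA replication and mitosis, taken by gene symbol from a table of microarray values of isolated mouse adipocytes. A probe set is the group of array probes that reports 1 gene, and 41 of the 42 genes had a probe set that names no other gene, among 19938 such genes on the array. Cyclin B1 (Ccnb1) had none and was not analysed here. The 41 genes were divided by their usual role into 17 genes of S phase, the phase in which DNA is copied, and 24 genes of mitosis, in which the copied chromosomes are separated.

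The arrays (Affymetrix, type Mouse Gene 1.0 ST) covered 2 kinds of preparation, epididymal adipocytes (labelled peripheral) and bone marrow (BM) adipocytes. Wild type male C57BL/6J mice were on chow or a high fat diet (HFD) at 6 and 14 months of age or on chow at 18 months, and leptin-deficient ob/ob mice were on chow at 6 months. The 12 groups had 3 arrays each, and each array was hybridized with RNA pooled from several of the 6 to 10 animals of its group, so p-values measure the spread between pools. Both kinds of cell were collected by floating them off other cells. Those of the marrow were floated after flushing the leg bones and lysing red blood cells, those of epididymal fat after mincing and digestion with collagenase. All groups of a depot shared its procedure, so depot and isolation procedure cannot be told apart in comparisons between depots.

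Mature adipocytes have left the cell cycle, while adipose tissue renews its fat cells from dividing progenitors and, in obesity, holds macrophages that can divide in place. Marrow is one of the most proliferative tissues of the adult, because precursors of red cells and neutrophils divide there. In a dividing cell E2F factors switch on the genes of S phase, and the kinase Cdk1 with cyclins A and B, driven by Foxm1 among others, carries the cell through mitosis. Most of these mRNAs are made only in cycling cells, so that their level in bulk RNA is low wherever few cells divide. In a bulk preparation, fewer cells of a type and less RNA per cell cannot be told apart.

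The values are log2 values as deposited, which ran from 1.93 to 14.63 over all probe sets. Arrays of 1 group correlated at 0.9552 or more (Pearson, over all probe sets). The 11 measured adipocyte markers had mean levels of 10.53 to 12.47 in epididymal arrays and only 6.50 to 8.13 in BM arrays. In BM arrays the 10 markers of neutrophil precursors had mean levels of 10.99 to 11.75 and the 10 erythroblast markers 9.67 to 10.94, against 5.06 to 8.33 and 5.95 to 7.43 in epididymal arrays. Adipocyte markers were thus the lower, and markers of blood cell precursors the higher, in BM. A set of 8 arrays (all 3 epididymal and all 3 BM arrays of 6-month HFD mice, BM 6-month chow array 1 and BM ob/ob array 3) stood apart from the other 28 by at least 1 log2 unit in 18 probe sets that name no gene. Comparisons that hold its arrays are given with a term for this set too. Epididymal 6-month chow array 1, epididymal ob/ob array 1 and BM 6-month HFD array 3 stood apart within their groups, and results that change without them are given both ways.

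In every group the proliferation genes were far higher in BM than in epididymal preparations. For 39 of the 41 genes all 18 BM arrays lay above all 18 epididymal arrays, which held for 5.69% of all 19938 genes. The exceptions were E2f1, the transcription factor that switches on S phase genes, and Cenpu, one of the centromere and kinetochore proteins. Mki67, which codes for the Ki-67 protein that coats mitotic chromosomes and is the standard mark of cycling cells, ranged from 11.22 to 12.39 in BM (median 11.87) and from 5.74 to 9.44 in epididymal arrays (median 7.09). The medians of the 2 depots lay 4.78 apart for Mki67, 4.65 for the spindle motor Kif11 and 4.54 for cyclin A2 (Ccna2).

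The depot difference was then tested group by group with limma, in which a gene was called when its Benjamini-Hochberg adjusted p over all 23410 named probe sets was under 0.05 and its change was at least 2-fold. In 6-month chow mice 40 of the 41 genes were lower in epididymal cells (11.2% of all probe sets were), and 1, Cenpu, was higher (11.8% of all). The largest of these differences were Mki67 (log2 difference -5.23 ± 0.34, SE, adjusted p = 3.67e-13), Ccna2 (-5.17), Plk1 (-4.62), Top2a (-4.62), Bub1 (-4.55) and Rrm2 (-4.51). The median difference of the 41 genes was -3.33, beside 0.05 over all named probe sets. Genes lower in epididymal cells numbered 38 of 41 in 6-month HFD mice (7.6% of all), 40 in 14-month chow mice (9.81%), 39 in 14-month HFD mice (10.8%), 40 in ob/ob mice (7.53%) and 39 in 18-month mice (10.8%). The medians were -2.07, -2.87, -3.10, -2.45 and -3.58 in the same order, so the gap was narrowest in HFD mice at 6 months. With a term for the set of 8 arrays the calls in either direction were the same 41 in 6-month chow and 38 in 6-month HFD mice, and 39 of the 40 in ob/ob mice.

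The genes not called as lower in these 5 later comparisons were 4. E2f1 differed by 0.28 in 6-month HFD mice, -0.48 in 14-month chow mice, -0.69 in 14-month HFD mice and -0.91 in 18-month mice. Cenpu differed by -0.63, 0.98 and 0.20 in 6-month HFD, 14-month HFD and 18-month mice. The remaining ones were the replication clamp Pcna in 6-month HFD mice (-0.44) and the helicase subunit Gins1 in ob/ob mice (-0.99). Of 54 other mitosis genes 52 or 53 were lower in epididymal cells in each group, and of 36 other replication genes 26 to 33.

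**Figure D1:**
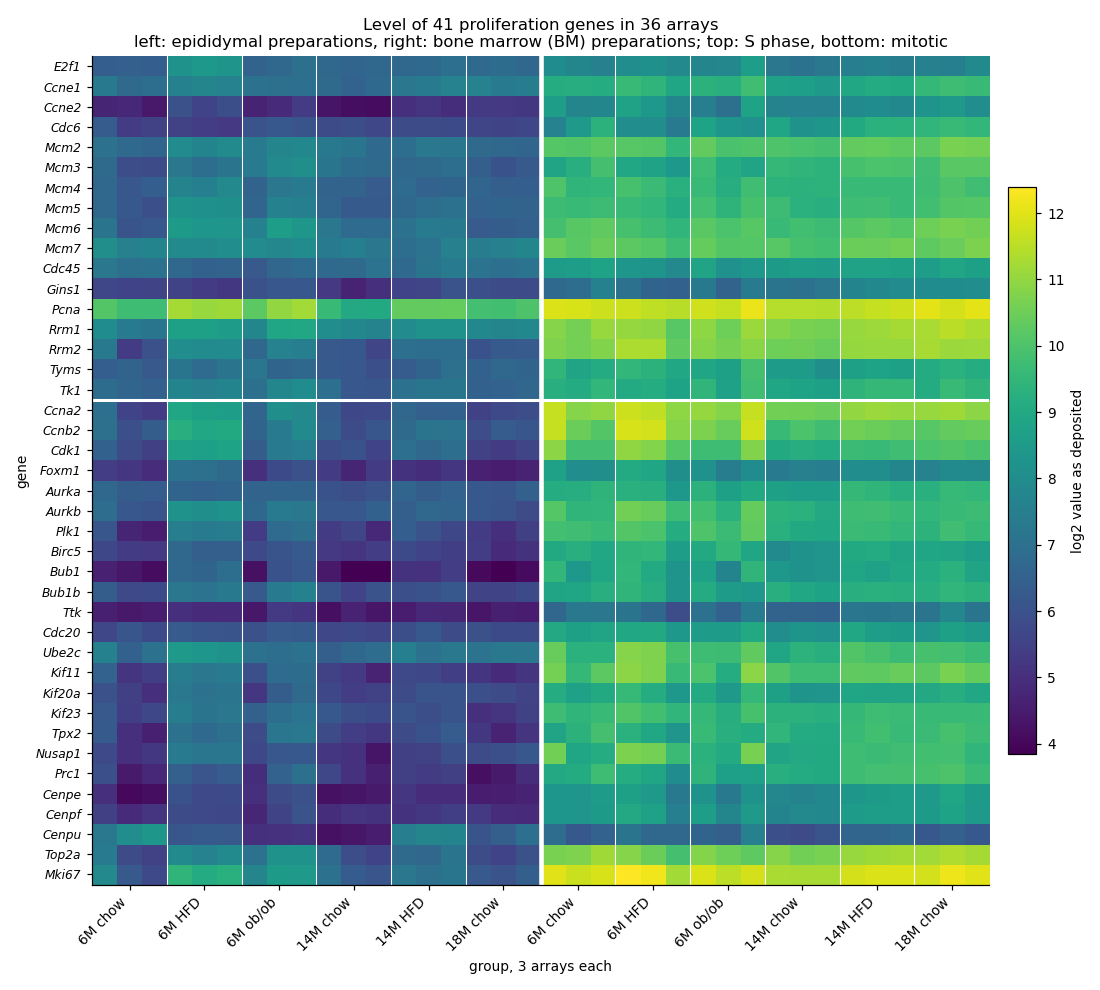
Level (log2 value as deposited, colour) of each of the 41 genes (rows, S phase above the line and mitotic genes below) in each of the 36 arrays (columns, 3 to a group). The BM arrays on the right are brighter than the epididymal arrays on the left in nearly every row. Among epididymal groups 6-month HFD and ob/ob have the highest mean levels of the 41 genes (7.36 and 6.81). The lowest ob/ob array (6.33) is below the 14-month HFD arrays (6.42 to 6.54) and the highest 6-month chow array (6.55).

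Genes of S phase and of mitosis are known to be timed through short elements in their promoters. Promoters of 300 bases (250 before and 50 after the start) from RefSeq, build GRCm38.p6, were matched for 34 of the 42 genes, Ccnb1 among them, in 36 promoters. The letters CCAAT, bound by NF-Y, CHR (cell cycle homology region, TTTGAA or TTTAAA), read by the MuvB complexes that switch mitotic genes, and an E2F site (TTTCCCGC, TTTGGCGC, TTTCGCGC or TTTGCCGC) were searched on both strands, and 1 match overlapped a match of another motif. Among 21 promoters of mitotic genes 19 held CCAAT (90.5%, against 37.4% of all 32851 promoters), 18 held CHR (85.7%, against 27.6%) and 1 held an E2F site (4.76%, against 2.26%). Among 15 promoters of S phase genes 10 held CCAAT (66.7%), 6 held CHR (40%) and 5 held an E2F site (33.3%). Both CCAAT and CHR stood in 17 mitotic promoters (81%), 4 S phase promoters (26.7%) and 10.7% of all. The 3 mitotic promoters without CHR were those of Bub1, Nusap1 and Cenpu. A match of letters is a description of the window and shows no binding.

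The promoters of 5 genes are shown, with the CCAAT, CHR and E2F letters in capitals. Cdk1 and Ccnb2 were among the mitotic genes that differed most between HFD and chow, Mcm6 and Mcm5 led the replicative helicase, and Cenpu was lower where the others were higher. Cdk1 (chr10:69352863-69353162, minus strand) held 3 CCAAT, 2 CHR and 1 E2F match, and Ccnb2 (chr9:70421505-70421804, minus strand) 3, 2 and 0. Mcm6 (chr1:128359656-128359955, minus strand) held 2, 0 and 3 matches of the same motifs, Mcm5 (chr8:75109259-75109558, plus strand) 3, 1 and 2, and Cenpu (chr8:46551819-46552118, plus strand) 1, 0 and 0.
Cdk1: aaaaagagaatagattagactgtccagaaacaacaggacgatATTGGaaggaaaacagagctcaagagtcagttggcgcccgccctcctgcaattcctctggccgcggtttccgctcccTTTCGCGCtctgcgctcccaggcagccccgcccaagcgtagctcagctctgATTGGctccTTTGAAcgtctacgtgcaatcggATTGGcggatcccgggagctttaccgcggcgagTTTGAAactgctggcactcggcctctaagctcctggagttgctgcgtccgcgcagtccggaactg
Ccnb2: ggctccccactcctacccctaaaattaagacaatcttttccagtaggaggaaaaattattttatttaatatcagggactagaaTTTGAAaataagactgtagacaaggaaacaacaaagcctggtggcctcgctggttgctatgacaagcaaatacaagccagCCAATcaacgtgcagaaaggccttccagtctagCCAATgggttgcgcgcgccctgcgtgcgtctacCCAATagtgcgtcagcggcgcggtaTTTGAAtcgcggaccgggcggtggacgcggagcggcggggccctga
Mcm6: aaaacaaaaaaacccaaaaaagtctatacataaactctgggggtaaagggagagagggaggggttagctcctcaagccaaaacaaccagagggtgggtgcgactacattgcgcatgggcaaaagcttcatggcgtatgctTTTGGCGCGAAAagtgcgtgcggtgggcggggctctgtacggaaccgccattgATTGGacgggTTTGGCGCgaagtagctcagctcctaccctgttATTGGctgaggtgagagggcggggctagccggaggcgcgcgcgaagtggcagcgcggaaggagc
Mcm5: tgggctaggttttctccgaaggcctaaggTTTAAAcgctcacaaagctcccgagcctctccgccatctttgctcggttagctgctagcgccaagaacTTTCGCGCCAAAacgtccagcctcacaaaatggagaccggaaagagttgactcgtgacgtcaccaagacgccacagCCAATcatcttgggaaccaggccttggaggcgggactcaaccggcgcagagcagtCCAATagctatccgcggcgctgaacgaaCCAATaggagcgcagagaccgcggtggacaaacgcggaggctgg
Cenpu: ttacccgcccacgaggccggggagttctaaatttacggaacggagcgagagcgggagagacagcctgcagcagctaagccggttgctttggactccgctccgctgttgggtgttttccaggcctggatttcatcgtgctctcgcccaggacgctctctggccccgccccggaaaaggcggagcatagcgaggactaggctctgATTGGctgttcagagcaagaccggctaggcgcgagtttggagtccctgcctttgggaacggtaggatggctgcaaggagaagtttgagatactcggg

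Proliferation genes were higher in epididymal preparations of HFD mice than of chow mice at 6 months. Of the 41 genes 29 were called higher, where 9.41% of all named probe sets were, and 1, Cenpu, was called lower, where 5.21% were. The median log2 difference of the 41 was 1.27, against -0.11 over all named probe sets, and 37 of the 41 lay above 0 (39.3% of all did). Mitotic genes had a median of 1.61 and S phase genes of 1.06. The mean level of the 41 genes was 5.89 to 6.55 in the chow arrays and 7.28 to 7.44 in the HFD arrays, with no overlap.

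Of the G1/S genes E2f1 rose the most. It lay at 6.40, 6.47 and 6.41 in the 3 chow arrays and at 8.21, 8.40 and 8.27 in the 3 HFD arrays. The groups did not overlap, and E2f1 rose by 1.86 ± 0.16 (adjusted p = 5.16e-10). Of the other G1/S genes, cyclin E2 (Ccne2), a partner of Cdk2, was called higher (1.16 ± 0.29), while cyclin E1 (Ccne1, 0.62 ± 0.16) and the origin licensing factor Cdc6 (-0.35 ± 0.28) were not.

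Of the replicative helicase and its clamp 5 of 9 genes were higher. Mcm6, a subunit of the ring that unwinds DNA, lay at 7.13, 6.07 and 6.21 on chow and at 8.50, 8.33 and 8.30 on HFD. All HFD arrays were above all chow arrays, and the rise was 1.91 ± 0.22 (adjusted p = 6.85e-08). Mcm5 (1.86), Pcna (1.30), Mcm4 (1.26) and Mcm2 (1.06) were also called. A further probe set of Pcna had nearly the same values in every array (r = 1.000), so copies of the gene cannot be told apart. Mcm3 (0.94), Mcm7 (0.20), Gins1 (-0.24) and Cdc45 (-0.48), which are parts of the same machine, were not. Of the enzymes that supply deoxynucleotides 3 of 4 were higher, led by Rrm2, the regulated subunit of ribonucleotide reductase. Rrm2 lay at 7.30, 5.33 and 5.96 on chow and at 8.03, 7.96 and 7.97 on HFD, without overlap, and rose by 1.79 ± 0.31 (adjusted p = 3.17e-05). Rrm1 (1.14) and thymidine kinase Tk1 (1.00, and 1.07 by its other probe set) were higher as well, and thymidylate synthase Tyms (0.65 ± 0.23) stayed under the 2-fold limit.

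The mitotic cyclins, their kinase and Foxm1 were all called higher (4 of 4, median 2.70). Cdk1, the kinase that starts mitosis, lay at 6.49, 5.84 and 5.46 on chow and at 8.74, 8.66 and 8.80 on HFD. The groups lay more than 2 log2 units apart, and Cdk1 rose by 2.81 ± 0.30 (adjusted p = 2.21e-08), or 6.99-fold. Ccna2 followed with 6.98, 5.58 and 5.38 on chow and 8.90, 8.69 and 8.62 on HFD, again without overlap. It rose by 2.76 ± 0.34 (adjusted p = 1.89e-07), the B-type cyclin Ccnb2 by 2.64 ± 0.36 (1.03e-06) and Foxm1 by 1.79 ± 0.24 (1.06e-06).

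The chromosome proteins moved with them, Mki67 by 2.66 ± 0.34 (adjusted p = 4.47e-07) and Top2a, the topoisomerase that untangles sister chromatids, by 1.59 ± 0.36 (0.000739). Mki67 lay at 7.88, 6.24 and 5.74 on chow and at 9.44, 9.12 and 9.27 on HFD, so that array 1 of chow was the highest of its group but still below all HFD arrays. A second probe set of Top2a, with values of 2.64 to 4.26 over all arrays, differed by -0.06 and did not show the rise. Among mitotic kinases and their partners 3 of 4 genes were higher. Plk1, a kinase of spindle assembly, lay at 6.13, 4.72 and 4.52 on chow and at 7.50, 7.38 and 7.48 on HFD, and rose by 2.33 ± 0.35 (adjusted p = 4.78e-06). Aurkb (1.80) and survivin (Birc5, 1.10), members of the passenger complex, were higher too, while Aurka (0.09 ± 0.17) was not called.

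All 6 genes of the kinesins, spindle and midzone proteins were higher, with a median of 1.64. They were Nusap1 (1.92), Kif20a (1.65), Tpx2 (1.65), Kif11 (1.63), Kif23 (1.47) and Prc1 (1.22), which build the spindle or the midzone where the cell divides. Of the spindle checkpoint and the anaphase-promoting complex 3 of 5 genes were higher. Bub1, a checkpoint kinase, lay at 4.62, 4.41 and 4.12 on chow and at 6.74, 6.61 and 6.93 on HFD, with no overlap, and rose by 2.38 ± 0.39 (adjusted p = 1.78e-05). Bub1b (1.26) and the ubiquitin-conjugating enzyme Ube2c (1.27) were called, whereas Ttk (0.42) and Cdc20 (0.30) were not. At the centromere the motor Cenpe rose by 1.43 ± 0.28 and Cenpf differed by 0.57 ± 0.27 (adjusted p = 0.103).

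**Figure D2:**
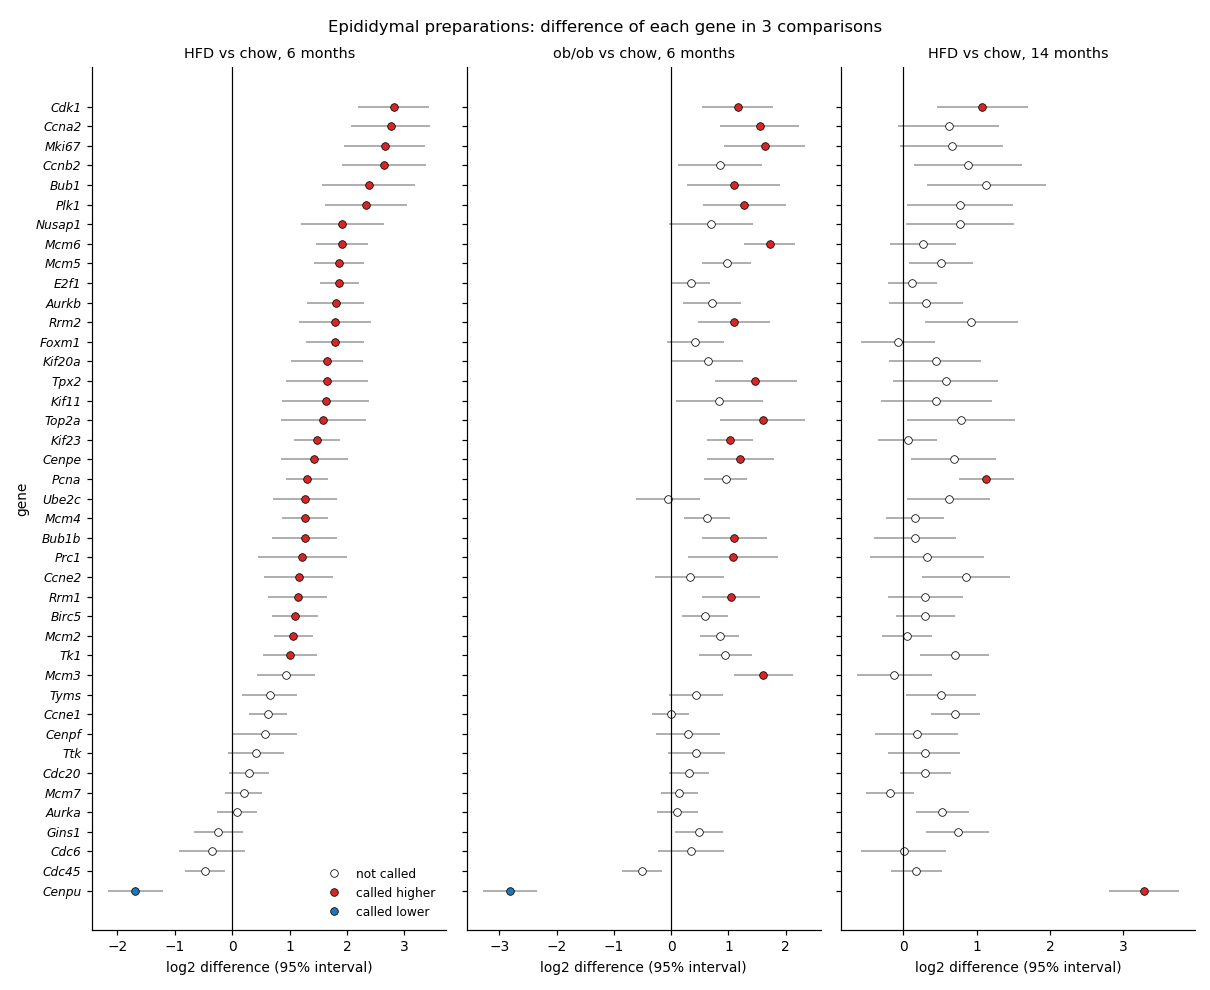
Log2 difference of each gene (rows, in the order of the first panel) with its 95% interval (lines) in epididymal preparations, for HFD against chow at 6 months, ob/ob against chow at 6 months and HFD against chow at 14 months (red called higher, blue called lower, white not called). Called rises number 29, 15 and 3 from left to right, and Cenpu is lower in the first 2 panels and higher in the third.

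Further cell cycle genes were counted by list. Of 54 other mitosis genes 16 were higher and none lower (median 0.73), led by the microtubule regulator Stmn1 (2.91), the checkpoint protein Mad2l1 (2.80) and the Cdk1 partner Cks2 (2.62). Of 36 other replication genes 8 were higher (median 0.35), led by the chromatin assembly subunit Chaf1b (1.80), the primase subunit Prim2 (1.79) and the clamp loader subunit Rfc5 (1.76). Of 17 cell cycle transcription factors E2f5, E2f8 and Lin54 were higher, and of 9 cyclins and kinases of G1 cyclin D1 (Ccnd1, 2.48), Cdk6 (2.27) and Cdk4 (1.10) were higher and Ccnd2 was lower (-1.08).

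Markers of other cells moved in the same comparison. Of 12 macrophage markers 11 were called higher, with a median difference of 4.30, and their mean level went from 7.80 to 7.99 in chow arrays to 11.54 to 11.58 in HFD arrays. Of 10 neutrophil precursor markers 5 were lower, of 10 erythroblast markers 4 were lower and 1 higher, and of 7 adipocyte progenitor markers 2 were lower. Of 11 adipocyte markers 2 were lower (median -0.46), and their mean level went from 12.42 to 12.44 on chow to 11.76 to 11.80 on HFD, without overlap. The part of these cells in the rise of the proliferation genes was not tested. Epididymal 6-month chow array 1 was the highest of its group for 36 of the 41 genes, with a mean of 6.55 against 5.91 and 5.89, and its neutrophil precursor markers lay at 8.33 against 5.88 and 5.67. Without this array 30 genes were higher and 1 lower, with a median of 1.54.

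All 3 epididymal HFD arrays at 6 months belong to the set of 8 arrays and none of the chow arrays does, so in epididymal cells the diet and the set can be separated only through BM arrays. Within BM groups the set's array lay above the other arrays of its own group by 1.55 (chow) and 1.45 (ob/ob) for Nusap1, 1.36 and 1.21 for Ccnb2, 1.06 and 1.04 for Cdk1 and 0.89 and 1.22 for Bub1, and 10 of the 41 genes exceeded 0.5 in both groups. Mcm3 was the 1 gene below -0.5 in both (-0.72 and -0.59). The share of all probe sets beyond these limits was not counted. Each difference rests on 1 array of the set, and the term takes the same shift to hold in epididymal arrays, which was not tested. With a term for the set, 22 genes were called between HFD and chow, 21 of them among the 30 called without it, and the median was 1.07. Cdk1 then rose by 1.76, Ccna2 by 2.03, Mki67 by 2.49, Plk1 by 2.02, Mcm6 by 2.05 and Mcm5 by 1.73. The 9 genes no longer called included 3 of the kinesin and spindle family, Nusap1 (0.42, adjusted p = 0.417), Kif11 (0.60, 0.406) and Kif20a (1.14, 0.0543). The others were Bub1 (1.33, 0.0588), Ube2c (0.41, 0.429), Ccne2 (-0.05), Mcm4 (0.78), Rrm1 (0.96) and Tk1 (0.70). Mcm3 (1.60) was called only with the term.

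At 14 months the same diet was accompanied by a smaller difference. Called higher were 3 of 41 genes, Cenpu (3.28 ± 0.23), Pcna (1.13 ± 0.18) and Cdk1 (1.08 ± 0.30), where 1.13% of all named probe sets were, and none was lower. The median was 0.51 against 0.03 over all, and 38 genes lay above 0 (54.1% of all did). Cdk1 lay at 5.88, 5.99 and 5.56 on chow and at 6.98, 6.75 and 6.94 on HFD, without overlap (adjusted p = 0.0155). Mki67, at 7.02, 6.33 and 6.09 on chow and 7.24, 7.01 and 7.16 on HFD, overlapped by 1 array and differed by 0.66 ± 0.34 (adjusted p = 0.244). E2f1 differed by 0.12 ± 0.16, with a 95% interval of -0.21 to 0.46. None of these 6 arrays belongs to the set of 8. Macrophage markers had mean levels of 9.39 to 10.21 on chow and 10.06 to 10.17 on HFD, and 3 of 12 were higher. Called lower were 4 of 7 adipocyte progenitor, 5 of 8 endothelial and 3 of 7 T cell markers, and no adipocyte marker was called. Their part was not tested.

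The difference between both ages was itself tested as an interaction of diet with age. In epididymal cells the effect of HFD was smaller at 14 than at 6 months for 16 of the 41 genes (10.3% of all named probe sets) and larger for 1, Cenpu (6.64% of all), with a median of -0.90 against 0.11 over all. The largest were Ccna2 (-2.13 ± 0.48, adjusted p = 0.000981), Mki67 (-1.99), Foxm1 (-1.86), Ccnb2 (-1.76), E2f1 (-1.74 ± 0.23, 1.42e-06) and Cdk1 (-1.73). With the term for the set of 8 arrays 11 genes were called in place of 17, 10 of them the same. Mki67 (-1.83), Foxm1 (-1.41) and E2f1 (-1.15) were still called, while Ccna2 (-1.41, adjusted p = 0.0691), Ccnb2 (-0.47, 0.561) and Cdk1 (-0.68, 0.276) were not. Leaving out epididymal 6-month chow array 2 gave 11 and leaving out array 1 gave 23.

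Ages were also compared within each diet. On HFD 19 genes were lower at 14 than at 6 months in epididymal cells (7.22% of all) and 1, Cenpu, was higher (4.05%), with a median of -0.94 against 0.06 over all. The falls were 14 mitotic and 5 S phase genes, led by Ccna2 (-2.20 ± 0.34, adjusted p = 9.53e-06), Mki67 (-2.14), Ccnb2 (-2.07), Foxm1 (-1.89), Cdk1 (-1.85) and Kif11 (-1.72). With the set term 9 genes were called, 7 of them among these 20. Mki67 (-1.98), Ccna2 (-1.47) and Foxm1 (-1.43) were still called, while Ccnb2 (-0.78, adjusted p = 0.198), Cdk1 (-0.80, 0.111) and Kif11 (-0.70, 0.371) were not. Macrophage markers were lower in 10 of 12 cases, and their part was not tested. On chow the only gene called between 14 and 6 months was Cenpu (-3.52), among 1.24% of all that were lower, and the median of the 41 was -0.12. Without 6-month chow array 1 there were 2 calls. Macrophage markers rose in this chow comparison (10 of 12 higher, median 2.15), as did 5 of 7 adipocyte progenitor markers, while the mean level of the 41 genes stayed at 5.81 to 6.10 against 5.89 to 6.55.

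At 18 months on chow the epididymal levels of the 41 genes had a mean of 5.96 to 6.09. Against 6 months only Cenpu was lower (-1.40 ± 0.24, 1.53% of all), and against 14 months 3 genes were higher (1.33% of all), Cenpu (2.12), Nusap1 (1.11 ± 0.34) and Ccne2 (1.06 ± 0.28). Ccne2 lay at 4.32, 4.16 and 4.15 at 14 months and at 5.30, 5.28 and 5.24 at 18 months. The arrays of both ages were tightly grouped and did not overlap. Macrophage markers had fallen to 6.83 to 6.94 by then, 10 of 12 being called lower than at 14 months, as were 8 of 8 endothelial and 6 of 7 adipocyte progenitor markers.

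**Figure D3:**
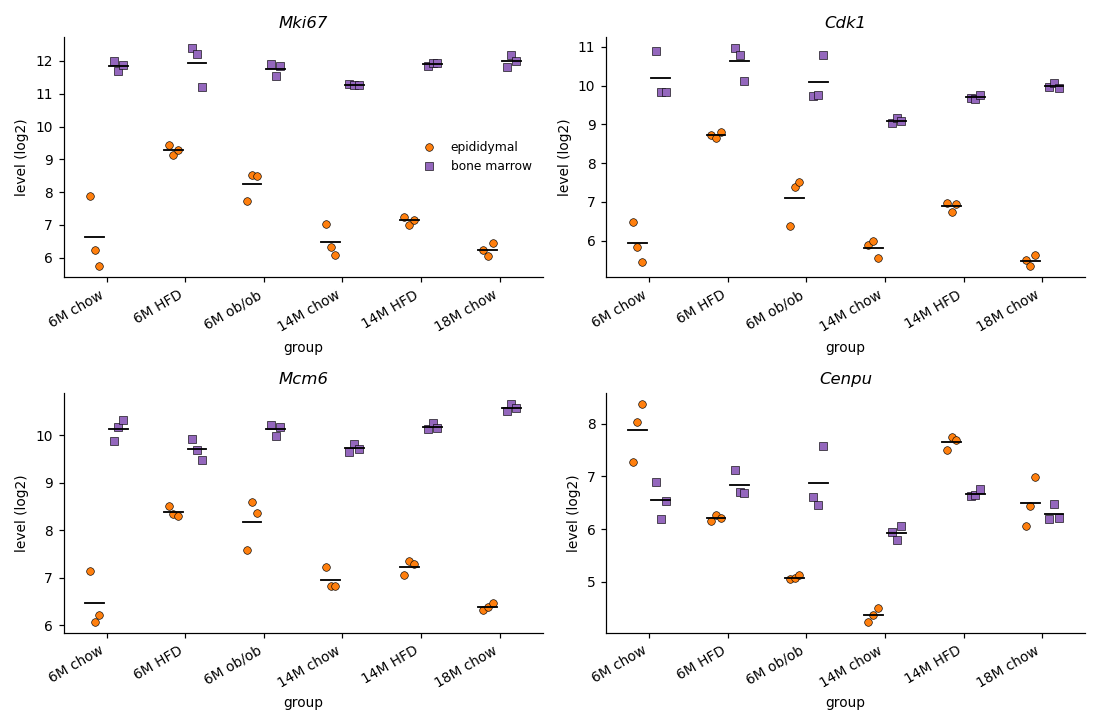
Levels (log2) of Mki67, Cdk1, Mcm6 and Cenpu in each array (points) by group, with group means (lines), in epididymal (circles) and bone marrow preparations (squares). In the first 3 genes the epididymal HFD arrays at 6 months stand well above the chow arrays, and in Cenpu the epididymal groups range from 4.24 to 8.38 with little spread inside most of them.

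Cenpu took a course of its own in epididymal cells. It lay at 7.27, 8.04 and 8.38 in 6-month chow arrays, at 6.15, 6.26 and 6.22 in 6-month HFD arrays and at 5.05, 5.07 and 5.12 in ob/ob arrays. At 14 months it lay at 4.24, 4.37 and 4.51 on chow and at 7.51, 7.75 and 7.70 on HFD, and at 18 months at 6.06, 6.43 and 6.98. No 2 of these groups overlapped except 18-month chow with 6-month HFD, and 14-month HFD with 6-month chow. The HFD thus went with a fall of 1.69 at 6 months and a rise of 3.28 at 14 months, and the interaction of diet with age was 4.97 ± 0.33 (adjusted p = 2.05e-11). In BM arrays Cenpu kept between 5.80 and 7.58. Its gene (chr8:46552019-46580568, GRCm38.p6) overlaps the primase-polymerase gene Primpol in the annotation, and whether probes read both was not tested. The same holds for further genes, among them Ccna2 with Exosc9, E2f1 with Necab3, Mcm7 with Ap4m1, Aurka with Cstf1 and Foxm1 with Tex52. It also holds for Prc1 with Rccd1, Tk1 with Afmid, Ccne2 with Ints8, Cdc20 with Elovl1 and Cdc45 with Ufd1, among others.

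In ob/ob mice some proliferation genes were also higher in epididymal cells. Against lean chow mice 15 of 41 were called higher (5.62% of all) and Cenpu lower (4.14% of all), with a median of 0.84 against -0.07 over all. HFD and ob/ob were compared with the same chow arrays, so their 2 lists are not independent. Mcm6 lay at 7.59, 8.60 and 8.36 in ob/ob arrays, above all chow arrays, and rose by 1.72 ± 0.22 (adjusted p = 5.56e-07). Mcm3, which was not called on HFD, lay at 7.38, 7.90 and 8.07 against 6.81, 5.87 and 5.83, and rose by 1.61 ± 0.25 (9.39e-06). These 2 helicase subunits did not overlap between the groups.

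The leading mitotic genes in ob/ob were Mki67 (1.63 ± 0.34), Top2a (1.60 ± 0.36), Ccna2 (1.55 ± 0.34) and Tpx2 (1.47 ± 0.35). Mki67 lay at 7.74, 8.52 and 8.48 in ob/ob arrays against 7.88, 6.24 and 5.74 on chow. Here ob/ob array 1 fell below chow array 1, and the same overlap occurred in Top2a, Ccna2 and Tpx2. Cenpu fell by 2.81 ± 0.23 (adjusted p = 2.75e-10). Of other mitosis genes 14 of 54 were higher, led by Mad2l1 (1.82), Smc2 (1.53) and Cenpa (1.51), and of other replication genes 6 of 36, led by Uhrf1 (1.52), Cdt1 (1.30) and Dbf4 (1.27). Cdk6 (2.02) and Ccnd1 (1.98) were the G1 genes called.

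Array 1 of the epididymal ob/ob group was the lowest of its group for 37 of the 41 genes, with a mean of 6.33 where array 3 had 7.11, and its macrophage markers lay at 10.35 against 11.24 and 11.45. Without it 21 genes were higher and 1 lower, with a median of 1.10, and without chow array 1 the counts were 20 and 1. The number of calls fell from 16 to 8 without ob/ob array 3, to 10 without ob/ob array 2 or chow array 2, and to 9 without chow array 3. In the full comparison 11 of 12 macrophage markers were higher (median 3.44) and 7 of 11 adipocyte markers lower (median -1.25), and 5 of 7 adipocyte progenitor and 4 of 7 T cell markers were higher. Their part was not tested. None of the 6 arrays belongs to the set of 8.

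Set directly against HFD mice, ob/ob mice had lower levels of 13 of the 41 genes (6.03% of all) and higher levels of none, with a median of -0.44 against 0.01 over all. The falls were 12 mitotic genes and E2f1, led by Ccnb2 (-1.79 ± 0.36), Cdk1 (-1.64 ± 0.30), E2f1 (-1.53 ± 0.16), Foxm1 (-1.37 ± 0.24), Ube2c (-1.32 ± 0.27) and Bub1 (-1.29 ± 0.39). E2f1 lay at 6.56, 6.75 and 6.99 in ob/ob arrays, above its chow arrays and more than 1 log2 unit below its HFD arrays. This comparison sets arrays of the set of 8 against others. With the set term none of the 41 genes was called, and without ob/ob array 1 there were 7.

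**Figure D4:**
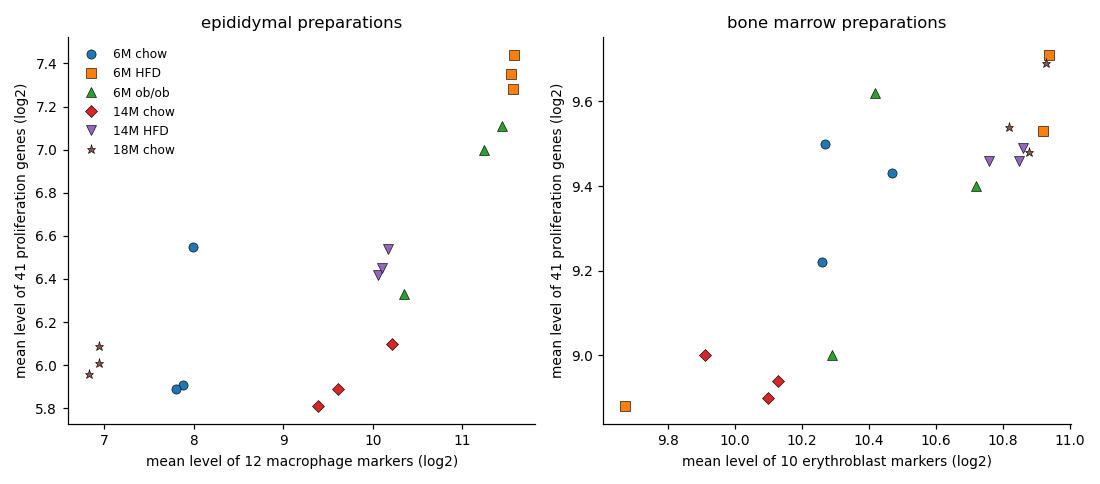
Mean level of the 41 proliferation genes in each array (vertical axis, log2) against the mean level of 12 macrophage markers in epididymal arrays (left) and of 10 erythroblast markers in bone marrow arrays (right), with a symbol for each group. Epididymal 14-month chow arrays have macrophage markers at 9.39 to 10.21 with proliferation genes at 5.81 to 6.10, and BM 6-month HFD array 3 is low on both axes of the right panel.

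In BM preparations at 6 months neither HFD nor the ob/ob genotype was accompanied by a called difference. Between HFD and chow none of the 41 genes was called by limma (1.34% of all named probe sets were, in either direction), and the median was -0.01. Cdk1 lay at 10.90, 9.84 and 9.84 on chow and at 10.97, 10.79 and 10.13 on HFD, overlapping, with a difference of 0.44 ± 0.30 and a 95% interval of -0.18 to 1.06. Mki67 differed by 0.08 ± 0.34 (95% interval -0.62 to 0.78). Mcm6 lay at 9.88, 10.16 and 10.31 on chow and 9.91, 9.69 and 9.48 on HFD, again overlapping (-0.42 ± 0.22). All 3 HFD arrays and 1 chow array belong to the set of 8. With the set term again none of the 41 genes was called, the median was -0.23, and 15 of the 41 genes turned sign, among them Cdk1 (-0.26), Ccnb2 (from 0.75 to -0.10), Ccna2 (from 0.26 to -0.23) and Mki67 (-0.03).

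BM 6-month HFD array 3 was the lowest of its group for 41 of 41 genes, with a mean of 8.88 against 9.71 and 9.53, and its erythroblast markers lay at 9.67 against 10.94 and 10.92. Without it 1 gene was called higher and the median was 0.29. Between ob/ob and chow none was called (0.15% of all), with a median of -0.03, and between ob/ob and HFD none (1.09% of all), with a median of -0.01. None was called in either with the set term, and the medians were -0.03 and 0.22. At adjusted p alone the counts were 0, 0 and 1 in these 3 BM comparisons, and at an unadjusted p under 0.05 they were 7, 0 and 4. The share of all named probe sets at that unadjusted threshold was not counted. Without BM chow array 1 the HFD comparison called 4 genes, and without BM ob/ob array 3 the comparison of ob/ob with HFD called 2 (1 without BM HFD array 3).

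The effect of HFD at 6 months was compared between depots directly. The interaction was positive, with a larger rise in epididymal cells, for 25 of 41 genes (7.49% of all) and negative for Cenpu (3.2% of all), with a median of 1.28 against -0.06 over all. It was largest for Mki67 (2.57 ± 0.48, adjusted p = 0.000254), Ccna2 (2.50 ± 0.48), Cdk1 (2.37 ± 0.43), Bub1 (2.36 ± 0.56), Plk1 (2.34 ± 0.50) and Mcm6 (2.33 ± 0.31, 2.69e-06). With the set term 27 genes were called, all 26 of these among them. At 14 months the interaction was called for 1 gene, Cenpu (2.54 ± 0.33, 1.77% of all), and the median was -0.03. Without epididymal 14-month chow array 1 there were 2 calls.

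At 14 months the BM levels differed between diets in 1 direction but by little. All 41 genes had a higher mean on HFD than on chow (49% of all named probe sets did), 39 of them without overlap (15.2% of all named probe sets lay higher without overlap), and the median was 0.51 against 0.00 over all. None was called, as no change reached 2-fold (0.743% of all were called, in either direction). At adjusted p alone 2 genes passed, Birc5 (0.84 ± 0.20, adjusted p = 0.0159) and Aurka (0.77 ± 0.17, 0.011), where 1.1% of all rose. At an unadjusted p under 0.05 there were 16, but the share of all named probe sets at that threshold was not counted. Aurka, a kinase of the spindle poles, lay at 8.70, 8.59 and 8.61 on chow and at 9.54, 9.44 and 9.24 on HFD. Both groups were narrow and did not overlap. The 10 erythroblast markers were likewise all above 0 (median 0.80), with mean levels of 9.91 to 10.13 on chow and 10.76 to 10.86 on HFD, while 11 of 12 macrophage and 7 of 7 T cell markers were below 0, with none called. Neutrophil precursor markers had overlapping mean levels of 10.99 to 11.25 on chow and 11.13 to 11.26 on HFD, and none was called. The part of these cells was not tested.

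Between 6 and 14 months on chow the BM levels were mostly lower at the later age, with 37 of the 41 genes below 0. The other 4 lay above 0 (46.8% of all named probe sets did), and the median was -0.49 against -0.02 over all. Only Cdk1 was called (-1.09 ± 0.30, adjusted p = 0.0309), where 0.205% of all were lower. Cdk1 lay at 10.90, 9.84 and 9.84 at 6 months and at 9.05, 9.17 and 9.09 at 14 months, without overlap, but array 1 at 6 months belongs to the set of 8. Cdk1 was no longer called with the set term (-0.74, adjusted p = 0.0747), and Birc5 was (-1.01, 0.00289). With that term the median was -0.33, and 5 of the 41 genes turned sign. Endothelial markers were lower for 3 of 8, and 3 of 7 T cell and 2 of 10 B cell precursor markers were higher. Without array 1 at 6 months no gene was called, and none without 14-month array 1 or array 2, while 2 were called without 6-month array 3. On HFD 4 genes were higher at 14 months (2.97% of all), Cdc6 (1.44 ± 0.28), Mcm3 (1.21 ± 0.25), Prc1 (1.14 ± 0.38) and Gins1 (1.12 ± 0.21), and Ccnb2 was lower (-1.02 ± 0.36, 2.49% of all). The set term left 1 of these 5 genes called, and without BM 6-month HFD array 3 the counts were 3 higher and 3 lower. With the set term 18 of the 41 genes turned sign, and the median moved from 0.01 to 0.35. Leaving out any 1 of the 14-month HFD arrays gave 3 calls.

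The interaction of diet with age in BM was called for Cdc6 (1.43 ± 0.40), Gins1 (1.06 ± 0.29) and Aurka (1.05 ± 0.24), where 1.09% of all were higher. The median was 0.54, and 36 of the 41 genes lay above 0 (53.1% of all did). The count was 0 without BM 6-month HFD array 3 or BM 6-month chow array 3, 5 without BM 6-month chow array 1, and 1 without array 2 or 3 of the 14-month chow or the 14-month HFD group. With the set term it was 1.

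At 18 months on chow the BM levels of all 41 genes lay above those at 14 months (42.9% of all did), 39 without overlap (12.4% of all lay higher without overlap), with a median of 0.61 against -0.04 over all. Cdc6, which loads the helicase onto origins, was the gene called (0.47% of all were higher). It lay at 8.87, 8.22 and 8.37 at 14 months and at 9.48, 9.63 and 9.51 at 18 months, without overlap, and rose by 1.05 ± 0.26 (adjusted p = 0.00678). At adjusted p alone 16 of 41 genes were higher, where 3.57% of all were, with Ccne1 (1.00 ± 0.15, adjusted p = 4.73e-05), Cdk1 (0.89 ± 0.28) and Gins1 (0.86 ± 0.19) next in size. Against 6 months Cdc6 was again the 1 gene called (1.06 ± 0.26, adjusted p = 0.0124, 0.325% of all higher). At 6 months its arrays ranged widely, at 7.65, 8.45 and 9.33. The call was lost with the set term, without 6-month array 1 and without 18-month array 2, and without 6-month array 3 there were 3 calls. The call against 14 months was lost without 14-month array 3, and there were 2 calls without 14-month array 1, 18-month array 1 or 18-month array 3. The same BM 14-month chow arrays serve in the BM comparisons with HFD at 14 months, with 6 months on chow and in the diet by age interaction. These BM results are therefore not independent. The mean level of the 41 genes was 8.95 in that group and 9.34 to 9.57 in the other BM groups. Neutrophil precursor markers were at 11.08 to 11.16 at 18 months and at 10.99 to 11.25 at 14 months, with none called. Erythroblast markers were at 10.82 to 10.93 at 18 months, and all 10 were above their level at 14 months, with 1 called. All 10 B cell precursor markers were below theirs, with 3 called, and their mean level went from 8.26 to 8.48 at 14 months to 7.17 to 7.62 at 18 months. Their part was not tested.

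**Figure D5:**
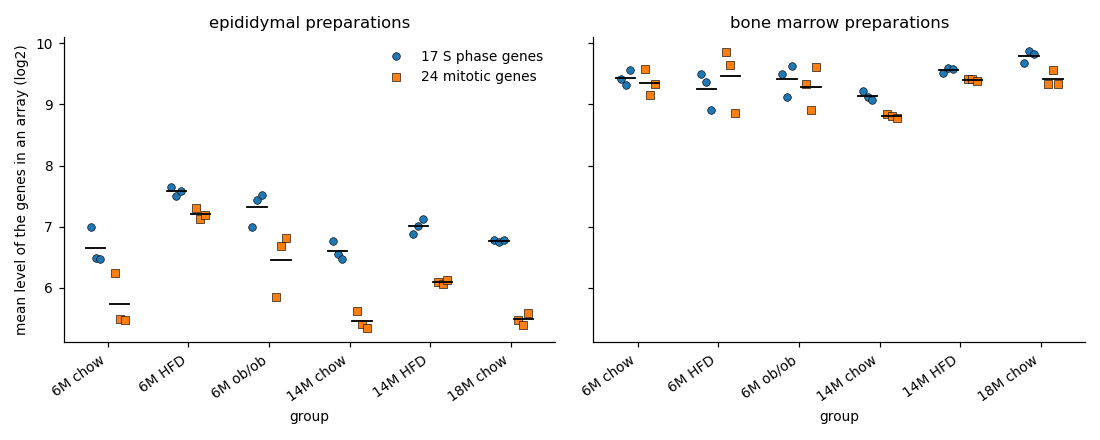
Mean level (log2) of the 17 S phase genes (circles) and the 24 mitotic genes (squares) in each array by group, with group means (lines), in epididymal (left) and bone marrow preparations (right). Both means are highest in 6-month HFD arrays among epididymal groups (7.51 to 7.65 and 7.12 to 7.30), and in BM the mitotic means are lowest in 14-month chow arrays (8.78 to 8.84).

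Across the 18 epididymal arrays most of the genes moved together. The correlation of a gene with the mean of the other 40 was 0.98 for Ccna2, 0.97 for Mcm5, Bub1 and Mki67 and 0.96 for Rrm2, Ccnb2 and Cdk1. It was lowest for Gins1 (0.20), Cdc6 (-0.02), Cenpu (-0.12) and Cdc45 (-0.44). The first, second and last of these act with the Mcm ring at replication origins. In the 18 BM arrays Mki67 (0.94), Cenpf (0.93) and Kif20a (0.91) followed the mean most closely, and Cdc6 (0.33) and Mcm3 (0.25) least. These correlations describe arrays that share groups, and arrays of 1 group are not independent of its treatment.

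Outside the cell cycle lists, the genes most like the mean of the 41 in epididymal arrays were the histone variant H2az1 (r = 0.975 over 18 arrays), Cacul1 (0.963), Tmem165 (0.962), Akr1a1 (0.958), Rpl7a (0.958), the mitotic kinase Mastl (0.955), Nostrin (0.953) and Bmt2 (0.953). In BM arrays 7 of the 8 most alike were Arhgap21 (0.961), Pkhd1l1 (0.96), the replication initiator Ticrr (0.959), the DNA helicase Brip1 (0.954), Abcg4 (0.946), the centromere protein Oip5 (0.934), whose gene overlaps the Nusap1 gene in the annotation, and Tom1l1 (0.931).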

How the data were processed

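RNA of 36 arrays in 12 groups was analysed. The authors deposited 1 table of log2 expression values for 35556 probe sets, made in Partek by GCRMA with quantile normalization according to the study's methods. The labels name RMA beside GCRMA, and versions are not given in the sources used here. The number of arrays limits the precision. Of the probe sets 23410 carried 1 gene symbol in the platform annotation, 1621 several and 12146 none, and the first kind was tested. Group means were fitted in limma 3.58.1 (R 4.3.3), with 30 arrays for the groups of 6 and 14 months and with 36 arrays for comparisons with 18 months. A call needed an adjusted p under 0.05 (Benjamini-Hochberg) and a change of at least 2-fold, which are the thresholds of the study's methods. Each gene was represented by its probe set with the highest mean, which gave 41 of 42 genes.

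The genes and the gene lists were chosen with earlier results of these data known. In each comparison the text names mainly the 6 largest rises and falls among called genes, all that were not called where they were few, the leading genes of each family with their arrays, and the 3 largest of the other lists. Others were named after their values were seen. Of the 8 genes most alike in BM, 1 is not reported here. Both depots came from the same mice, but array numbers of the depots did not pair (18 pairs, correlation of deviations -0.16 to 0.18). Alternatives were quantile normalization, median centring, a filter on low values, no minimum fold, the compared arrays alone, a term for the set of 8 arrays, replicate blocks, other probe sets and leaving out each array. The fit was tested on simulated data.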

Additional observations from a re-analysis of the deposited data

Results flagged for a closer look

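The effect of HFD was called as differing between groups for at least 1 of the 41 genes in 4 tests of an interaction. Between 6 and 14 months it differed for 17 genes in epididymal cells. Of these, 16 had a smaller effect at 14 months (10.3% of all named probe sets) and 1, Cenpu, a larger one (6.64% of all). In BM it differed for 3 genes (1.09% of all in their direction). With the set term the counts were 11 and 1, and leaving out 1 array at a time gave 11 to 23 and 0 to 5. The effect of HFD was also compared between depots. Between epididymal and BM cells it differed for 26 genes at 6 months. Of these, 25 had a larger effect in epididymal cells (7.49% of all) and 1, Cenpu, went the other way (3.2% of all). At 14 months it differed for 1 of 41 genes, Cenpu, where 1.77% of all were called in its direction, so this count is near the share over all.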

How the results depend on the processing

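Numbers are members called. With only the compared arrays in the fit, 0 were called for 14 against 6 months on chow, diet by age and 18 against 6 months, all in BM. Without the 2-fold minimum the epididymal counts were 8 for HFD at 14 months, 5 for 14 against 6 months on chow, 3 for 18 against 6 and 9 for 18 against 14 months, the BM counts were 2 for HFD at 14 months, 5 and 10 for 14 against 6 months on chow and HFD, 1 for ob/ob against HFD, and 2 and 16 for 18 against 6 and 14 months, and diet by depot at 14 months had 3. Quantile normalization gave 5 for epididymal HFD at 14 months and 2 for BM 18 against 14 months. Median centring gave 7 and 2 for these, 10 for epididymal ob/ob against chow, 2 for diet by depot at 14 months and 5 for epididymal 18 against 14 months, and it moved the median of all named probe sets from 0.03 to 0.18 for epididymal HFD at 14 months. The term for the set of 8 arrays gave 9 for epididymal and 1 for BM 14 against 6 months on HFD, 0 for epididymal ob/ob against HFD, 11 for epididymal and 1 for BM diet by age, and 0 for BM 18 against 6 months. It kept a count of 1 for BM 14 against 6 months on chow but of another gene. Without the set's BM chow and ob/ob arrays the BM counts were 4 for HFD at 6 months, 0 for 14 against 6 months on chow, 2 for ob/ob against HFD, 5 for diet by age and 0 for 18 against 6 months. The filter on low values moved no count by over 1.5 times.

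Leaving out 1 array at a time gave 27 to 31 for epididymal HFD at 6 months, 18 to 21 for epididymal 14 against 6 months on HFD, 21 to 29 for diet by depot at 6 months and 1 to 2 at 14 months. It gave 8 to 22 for ob/ob against chow, 7 to 15 for ob/ob against HFD, 11 to 23 for diet by age and 1 to 2 for 14 against 6 months on chow, all epididymal. In BM it gave 0 to 4 for HFD at 6 months, 0 to 2 and 3 to 6 for 14 against 6 months on chow and HFD, 0 to 2 for ob/ob against HFD, 0 to 5 for diet by age, and 0 to 3 and 0 to 2 for 18 against 6 and 14 months. With the array number as a replicate block 26 of 26 counts stayed within 1.5 times, and with depot pairs as a block (estimated correlation 0) 8 of 8 did, so the block changed no count by more than that.

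Among called differences of named genes, signs turned for Ccne2 (-0.05, epididymal HFD at 6 months), Ccnb2 (0.26, BM 14 against 6 months on HFD) and Nusap1 (0.27, epididymal ob/ob against HFD) with the set term, and for the second Top2a probe set in epididymal HFD at 6 months (-0.06), epididymal against BM in ob/ob (0.05) and diet by depot at 6 months (-0.30). Called or not, 84 differences turned sign with the set term over all comparisons. In BM these were 18 for 14 against 6 months on HFD, 15 for HFD at 6 months and 14 for ob/ob against HFD. Epididymal HFD at 6 months had 4. The causes were not tested. Of 379 called differences of named genes, 51 were no longer called with the set term (the 3 turned ones included), 19 with quantile normalization, 15 with median centring and 13 with the compared arrays alone. Probe sets with levels near the lowest values, such as the second Top2a probe set, limit what can be read.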
